A study of Drosophila melanogaster with 62 samples.

Results

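The genes *png*, *plu* and *gnu* encode the subunits of the Pan Gu kinase, and their mRNAs were followed in single oocytes and single embryos of *Drosophila melanogaster* in which the maternal dose of *brat* differed. The 3 genes were taken by symbol from the 17510 genes of the count table, and each of them had enough reads to be tested in every comparison made. *brat*-mutant samples came from mothers labelled brat Df/fs1, a deficiency that removes *brat* over the female-sterile *fs1* allele. *brat* hets came from mothers that carried either of these over the CyO balancer, and the labels do not say which of them a given library had. *HisRFP* controls were labelled w;His2AVRFP(III), and by the study's methods all embryos carried the same histone transgene, which was used to read the nuclear cycle (NC). The 62 libraries fall into 16 groups. *brat*-mutant and *HisRFP* samples were late-stage oocytes and embryos of NC10, NC12 and NC13, with NC14 sampled early and again later. *brat* hets lack the NC13 and early NC14 groups. Groups had 4 libraries, lettered A to D, and the NC13 groups had 3 (A, C and D). Each library was a separate oocyte or embryo, and no pooling was described.

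Pan Gu is a serine/threonine kinase that is switched on as a mature egg is activated and leaves meiosis. PNG is the catalytic subunit, PLU is a small ankyrin-repeat protein, and GNU is the activating subunit, which cyclin B and CDK1 phosphorylate in the oocyte and thereby keep from binding. The active kinase relieves translational repression of maternal mRNAs, among them those of cyclins A and B, and phosphorylates repressors such as TRAL, ME31B, BICC and PUM. Loss of any of the 3 genes gives eggs in which DNA replicates without mitosis, hence the names of the mutants. BRAT is an RNA-binding protein that represses the translation of maternal mRNAs and promotes their decay.

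In the coordinates of dm6, *png* (FBgn0000826) lies on chromosome X from 1356488 to 1357601 on the minus strand and has 1 exon. *plu* (FBgn0003114) lies on 2R from 20262958 to 20263684, also on the minus strand, with 3 exons. *gnu* (FBgn0001120) lies on 3L from 14802380 to 14803360 on the minus strand with 2 exons. Each has 1 annotated transcript, and no other annotated gene overlaps any of them. The reads were counted without regard to strand, and the nearest genes are close: *CG11417* ends 15 bp from *png*, *PCNA* starts 75 bp beyond the 3′ end of *plu*, *RpS18* starts 295 bp on the other side of *plu*, and *NHP2* lies 212 bp from *gnu*.

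Between 4000899 and 41029921 reads per library were counted on genes. The stage labels were checked with summed CPM (a gene's reads per 1000000 reads counted, scaled by TMM factors over the 62 libraries). The 8 zygotic genes checked (*sisA*, *scw*, *eve*, *ftz*, *sna*, *twi*, *Kr* and *kni*) summed to 0.463 to 18.0 CPM in oocytes and to 2200 to 6100 CPM at later NC14. The oocyte sums overlapped those of NC10 (0 to 43.4 CPM). The highest oocyte sum was that of *HisRFP* replicate A, and the next highest was 8.34 CPM. A library labelled *brat*-mutant NC10 (replicate A) stood apart: it had 0 CPM of these genes against 6.8 to 17.3 CPM in the other 3, and 2010 CPM of the maternal germline mRNAs *bcd*, *osk*, *gcl* and *vas*, against 968 to 1050 CPM. Eggshell genes of the follicle cells that surround an oocyte also differed between the oocyte groups: 12 of them summed to 55 to 266 CPM in *brat*-mutant oocytes, to 17600 to 59900 CPM in *brat* het oocytes, and to 6200 to 31000 CPM in *HisRFP* oocytes except replicate A, which had 2.87 CPM. The presence of *brat* mRNA does not check the labels, since *brat* reads were counted in every group: its mean was 510 ± 26.8 CPM in *brat*-mutant oocytes, 675 ± 188 CPM in *brat* het oocytes and 757 ± 195 CPM in *HisRFP* oocytes (SD, n = 4 each). Its level was further apart at later NC14, at 853 ± 148 CPM in *brat* mutants, 151 ± 24.0 CPM in *brat* hets and 205.5 ± 48.5 CPM in *HisRFP* (SD, n = 4 each). CPM is a share of the polyadenylated RNA of an oocyte or embryo, so a lower amount of an mRNA and a higher amount of all others cannot be told apart.

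All 3 mRNAs were present in the oocyte, and their levels followed different courses up to later NC14. Maternal mRNA that persisted and newly transcribed mRNA cannot be told apart in these counts. *gnu* was the most abundant. In CPM per kilobase of exon (RPKM), *gnu* averaged 330 ± 42.0 in *brat*-mutant oocytes, 344 ± 20.1 in *brat* het oocytes and 349 ± 122 in *HisRFP* oocytes. *plu* averaged 77.0 ± 6.49, 68.1 ± 4.89 and 68.1 ± 25.2 RPKM in the oocytes of *brat* mutants, *brat* hets and *HisRFP*. *png* was the only one of the 3 whose RPKM in mutant and het oocytes lay apart from that in controls, at 116 ± 26.2 in *brat* mutants, 100 ± 19.8 in *brat* hets and 41.3 ± 14.5 in *HisRFP* (SD, n = 4 for each value). By later NC14 the *png* level was 1.69%, 2.86% and 4.93% of the oocyte mean in *brat* mutants, *brat* hets and *HisRFP*, and the *gnu* level was 1.61%, 1.6% and 1.86%. The *plu* level was 11.4% of the oocyte mean in *brat* mutants, 53.5% in *brat* hets and 64.0% in *HisRFP*.

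**Figure D1:**
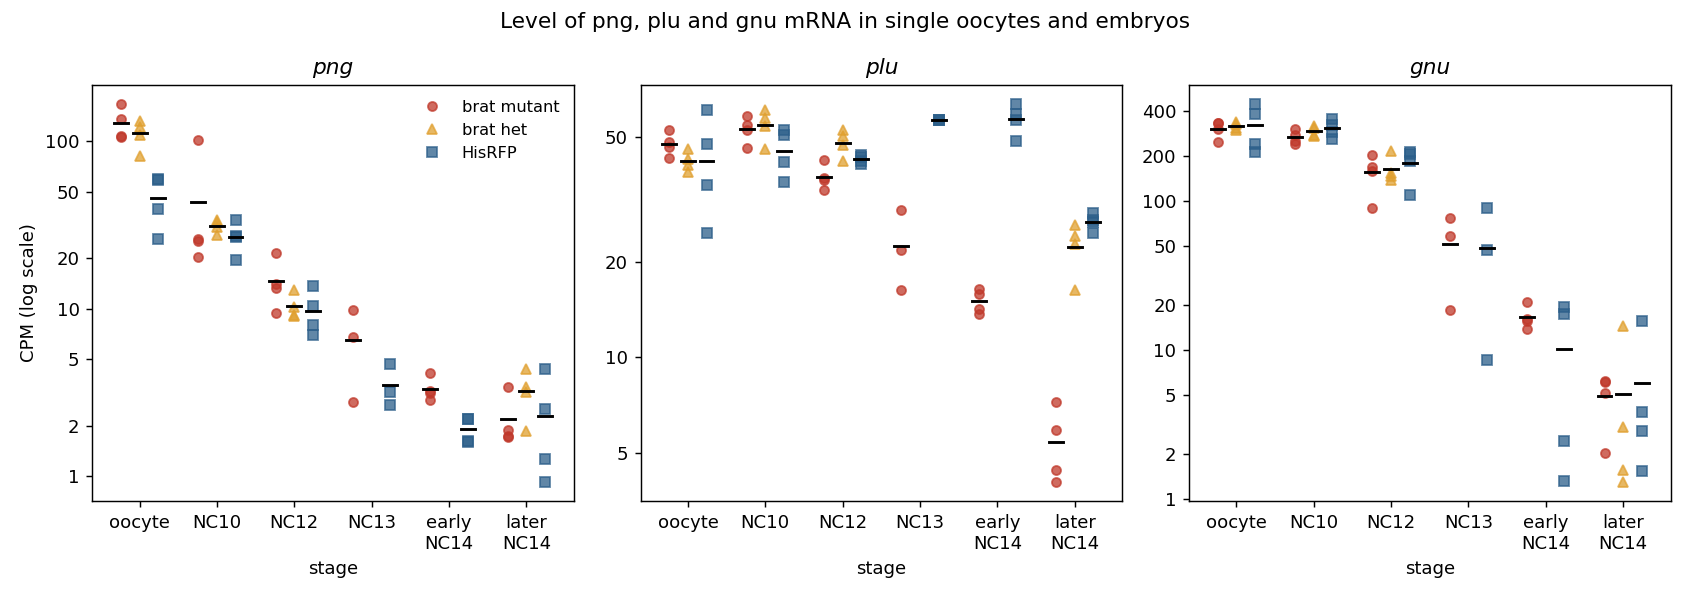
CPM of *png*, *plu* and *gnu* on a log axis against stage, with 1 point per library and a black bar at each group's mean, for *brat* mutants (circles), *brat* hets (triangles) and *HisRFP* (squares); *brat* hets were not sampled at NC13 and early NC14. *png* and *gnu* lie at or below 21.0 CPM at NC14 in every genotype, whereas *plu* is at 48.6 to 63.5 CPM in *HisRFP* at early NC14 and at 13.7 to 16.5 CPM in *brat* mutants.

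The comparison of *brat* mutants with *HisRFP* at each stage shows whether loss of maternal BRAT goes with a changed level of these mRNAs. The groups also differ in stock: the *brat* deficiency is on the left arm of the chromosome whose right arm bears *plu*. The *HisRFP* label names neither *brat* allele. The part of other differences on that chromosome in the level of *plu* was not tested. Of the 3 genes, *plu* was lower in *brat* mutants at the last 3 stages, and neither *png* nor *gnu* was called at any of the 6 stages. A gene was called at an adjusted p under 0.05 (edgeR's quasi-likelihood test, Benjamini-Hochberg over all genes tested) and an absolute log2 fold change over 1. *plu* did not differ detectably before NC13. The share of all tested genes called was 1.15% in oocytes, 3.27% at NC10, 5.64% at NC12, 3.91% at NC13, 13.8% at early NC14 and 13.7% at later NC14.

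*plu* had 48.0, 42.7, 52.4 and 46.5 CPM in *brat*-mutant oocytes, against 60.7, 47.4, 35.1 and 24.7 CPM in *HisRFP* oocytes. The mutant oocytes lay within the range of the controls, and the log2 fold change was 0.18 ± 0.20 (SE, adjusted p = 0.757). At NC10 it had 45.9, 54.6, 52.5 and 58.2 CPM in *brat* mutants, against 52.5, 36.0, 50.7 and 41.4 CPM in *HisRFP*. At NC12 it had 36.4, 34.0, 42.1 and 37.0 CPM in *brat* mutants, against 43.1, 43.7, 41.8 and 40.9 CPM in *HisRFP*. The groups still overlapped at both stages, with log2 fold changes of 0.25 ± 0.15 (adjusted p = 0.464) and −0.16 ± 0.11 (adjusted p = 0.427).

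From NC13 the groups no longer overlapped. At NC13 *plu* had 16.3, 21.8 and 29.3 CPM in *brat* mutants, against 56.5, 56.5 and 56.5 CPM in *HisRFP*. Every mutant embryo was below every control, 2.51-fold by the means, and the log2 fold change of −1.34 ± 0.27 was just past the threshold (adjusted p = 0.0495). That call was lost when counts were scaled by library totals alone, and when any library but *brat*-mutant replicate A was left out (log2 fold changes of −1.6 to −1.32 and adjusted p of 0.0868 to 0.184 without each of the other 5), and the direction was the same in each. The 3 control values lay closer together than the counting error of their 1132 to 1277 reads. At early NC14 *plu* had 16.5, 15.9, 14.3 and 13.7 CPM in *brat* mutants, against 58.8, 63.5, 48.6 and 56.5 CPM in *HisRFP*. The mutants were 3.77-fold lower by the means, with a log2 fold change of −1.94 ± 0.15 (adjusted p = 2.16e-05). At later NC14 it had 7.25, 5.88, 4.03 and 4.4 CPM in *brat* mutants, against 26.8, 28.6, 24.8 and 27.2 CPM in *HisRFP*. This was the largest difference between *brat* mutants and *HisRFP* in the 3 genes, 4.98-fold lower in *brat* mutants by the means, with a log2 fold change of −2.36 ± 0.22 (adjusted p = 9.24e-05). Both NC14 calls held under every alternative tried, with log2 fold changes of −2.0 to −1.90 at early NC14 and −2.52 to −2.24 at later NC14.

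The zygotic and maternal germline sums of *brat* mutants and *HisRFP* overlapped in range at the stages where *plu* did not. The study reports many maternal mRNAs and zygotic transcripts raised in *brat* mutants. The sums may thus depend on genotype, and they do not show that the embryos were matched in stage. At NC13 the zygotic genes summed to 983, 430 and 417 CPM in *brat* mutants, against 370, 988 and 351 CPM in *HisRFP*. The maternal germline mRNAs summed to 171, 354 and 688 CPM in *brat* mutants, against 514, 336 and 878 CPM in *HisRFP* at NC13. The zygotic genes summed to 683 to 1030 CPM in *brat* mutants and 632 to 1370 CPM in *HisRFP* at early NC14, and to 3290, 3680, 2820 and 5110 CPM in *brat* mutants, against 3390, 5500, 6100 and 5340 CPM in *HisRFP*, at later NC14. At later NC14 most mutants thus had lower sums of these zygotic genes than most controls, which does not describe zygotic mRNA as a whole. The part of these sums in the level of *plu* was not tested. The maternal germline mRNAs summed to 173 to 620 CPM in *brat* mutants and 72.7 to 598 CPM in *HisRFP* at early NC14, and to 21.8 to 47.3 CPM in *brat* mutants and 25.2 to 78.0 CPM in *HisRFP* at later NC14.

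**Figure D2:**
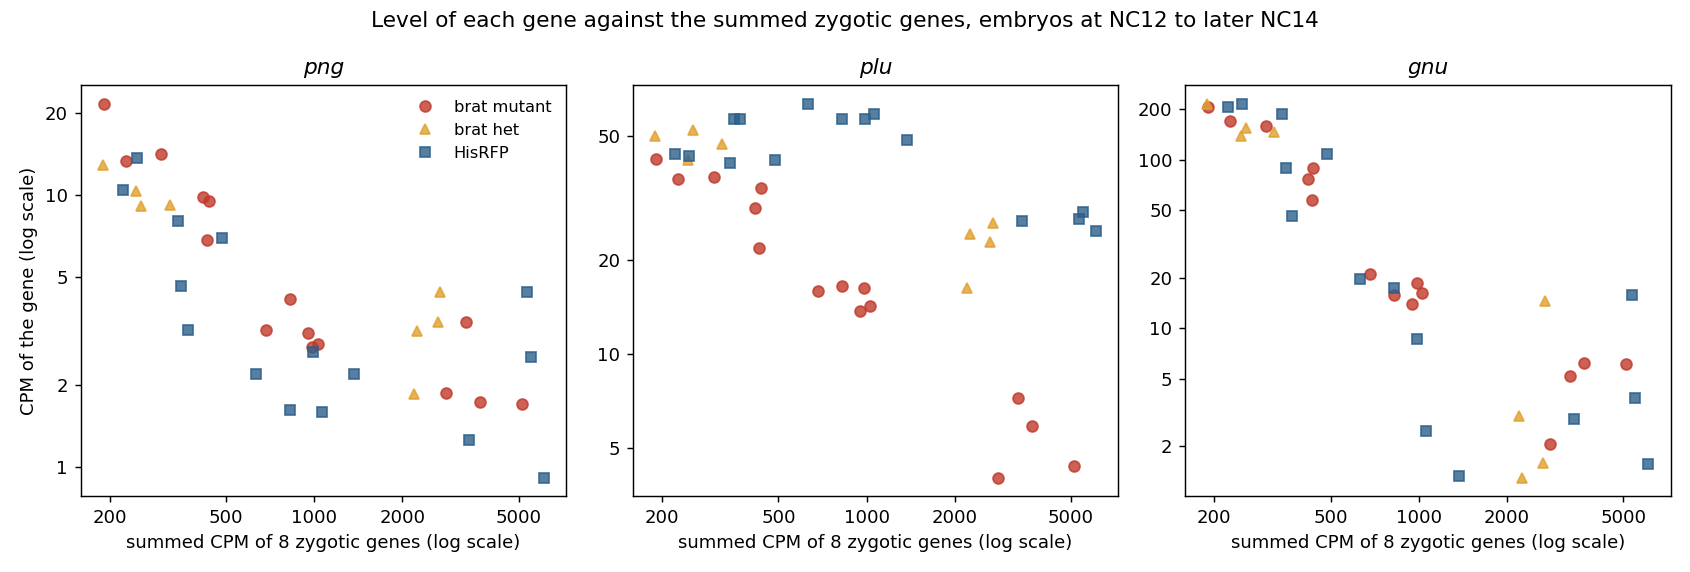
CPM of each gene against the summed CPM of the 8 zygotic genes, both on log axes, for the embryos at NC12 to later NC14 (1 point per library; circles, *brat* mutants; triangles, *brat* hets; squares, *HisRFP*). In the panel for *plu* the *brat* mutants of NC13 and NC14 lie below the *HisRFP* embryos of the same stage, whereas in the panel for *gnu* the symbols intermingle. The zygotic sum may itself depend on genotype, which was not tested.

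For *png*, which encodes the catalytic subunit, the groups were apart in the oocyte, though not past the threshold. *png* had 136, 106, 107 and 168 CPM in *brat*-mutant oocytes, against 39.5, 26.3, 59.1 and 59.4 CPM in *HisRFP* oocytes. Every mutant oocyte was above every control, 2.81-fold by the means, but the log2 fold change of 1.47 ± 0.30 missed the threshold (adjusted p = 0.0554). Over the alternatives the adjusted p ran from 1.94e-05 to 0.179, and 5 of the 15 alternatives put it past the threshold. DESeq2, the test program of the study, was among them (log2 fold change of 1.46, adjusted p = 1.94e-05). Without the *HisRFP* oocyte that lacked eggshell mRNA the log2 fold change was 1.37 (adjusted p = 0.0866), and with the eggshell genes removed it was 1.47 (adjusted p = 0.0544). That removal takes out the counts of these genes and leaves any other difference between the oocyte samples. The part of the eggshell difference in the level of *png* was not tested.

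In the embryo the *png* groups overlapped at all stages but 1. At NC10 *png* had 102, 20.4, 26.0 and 25.6 CPM in *brat* mutants, against 33.9, 27.3, 26.8 and 19.5 CPM in *HisRFP*. The high value belongs to replicate A, the library with no reads of the zygotic genes checked: the log2 fold change was 0.70 ± 0.50 (adjusted p = 0.572) with it and −0.14 (adjusted p = 0.705) without it. At NC12 *png* had 13.3, 9.45, 21.6 and 14.1 CPM in *brat* mutants, against 13.6, 10.4, 6.92 and 8.0 CPM in *HisRFP* (0.60 ± 0.29, adjusted p = 0.253). At NC13 it had 2.76, 6.81 and 9.80 CPM in *brat* mutants, against 3.19, 2.64 and 4.64 CPM in *HisRFP* (0.89 ± 0.54, adjusted p = 0.452). At early NC14 the groups were apart at a low level, with 4.13, 3.20, 2.84 and 3.12 CPM in *brat* mutants, against 1.6, 2.19, 2.20 and 1.63 CPM in *HisRFP* (39 to 93 reads against 35 to 63). That log2 fold change of 0.78 ± 0.32 was under the size threshold and its adjusted p was 0.113. At later NC14 *png* had 3.42, 1.73, 1.88 and 1.71 CPM in *brat* mutants, against 1.26, 2.53, 0.917 and 4.38 CPM in *HisRFP* (−0.06 ± 0.52, adjusted p = 0.942).

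The activating subunit's mRNA overlapped between *brat* mutants and *HisRFP* at every stage. *gnu* had 304, 250.0, 333 and 332 CPM in *brat*-mutant oocytes, against 448, 385, 242 and 213 CPM in *HisRFP* oocytes (−0.08 ± 0.20, adjusted p = 0.918). At NC10 it had 304, 241, 254 and 279 CPM in *brat* mutants, against 355, 262, 321 and 291 CPM in *HisRFP* (−0.17 ± 0.13, adjusted p = 0.615). At NC12 it had 169, 89.3, 205 and 159 CPM in *brat* mutants, against 215, 206, 109 and 186 CPM in *HisRFP* (−0.18 ± 0.26, adjusted p = 0.764). Up to NC12 the spread among embryos of 1 group was moderate, and the standard errors were at most 0.26.

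From NC13 on the standard errors of *gnu* were larger, 0.67 to 0.86, and its CPM varied several-fold within each group except *brat*-mutant early NC14. At NC13 it had 18.5, 58.0 and 76.7 CPM in *brat* mutants, against 46.6, 8.63 and 89.7 CPM in *HisRFP* (0.09 ± 0.86, adjusted p = 0.973). The lowest embryo of each group was also the one with the highest sum of the zygotic genes checked, 983 CPM in *brat* mutants (replicate A) and 988 CPM in *HisRFP* (replicate C), against 351 to 430 CPM in the others. The part of embryo timing in these levels was not tested. At early NC14 *gnu* had 15.7, 21.0, 16.1 and 14.0 CPM in *brat* mutants, against 2.46, 19.5, 1.32 and 17.4 CPM in *HisRFP* (0.71 ± 0.70, adjusted p = 0.505). At later NC14 it had 5.18, 6.23, 2.06 and 6.10 CPM in *brat* mutants, against 2.89, 3.85, 1.56 and 15.7 CPM in *HisRFP* (−0.32 ± 0.67, adjusted p = 0.758).

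*brat* hets, whose mothers kept a balancer copy of *brat*, were compared with *HisRFP* at 4 stages, and none of the 3 genes was called at any of them. The share of all tested genes called was 1.92% in oocytes, 3.44% at NC10, 4.37% at NC12 and 3.71% at later NC14. The largest of these differences was that of *png* in oocytes, with 82.4, 123, 109 and 133 CPM in *brat* het oocytes, all above the *HisRFP* oocytes (26.3 to 59.4 CPM). Its log2 fold change was 1.16 ± 0.30 (adjusted p = 0.0811), and 3 of the 15 alternatives put it past the threshold. DESeq2, the study's program, was again among them (1.16, adjusted p = 0.00523). *plu* at later NC14 had 22.9, 24.2, 16.3 and 26.3 CPM in *brat* hets, against 24.8 to 28.6 CPM in *HisRFP* (−0.21 ± 0.17, adjusted p = 0.519). *gnu* at later NC14 had 1.58, 1.30, 3.03 and 14.4 CPM in *brat* hets, against 1.56 to 15.7 CPM in *HisRFP* (−0.23 ± 0.90, adjusted p = 0.922). In each of these groups replicate D was the high one, and it also had the most maternal germline mRNA of its group, 85.3 CPM in *brat* hets and 78.0 CPM in *HisRFP*, against 19.2 to 35.4 CPM and 25.2 to 35.6 CPM in their other replicates.

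The direct comparison of *brat* mutants with *brat* hets asks whether the mutants differ from samples with a single copy of the same alleles. The share of all tested genes called was 7.5% in oocytes, 0.175% at NC10, 1.74% at NC12 and 1.96% at later NC14. *plu* at later NC14 was called: the 4.03 to 7.25 CPM of *brat* mutants lay below the 16.3 to 26.3 CPM of *brat* hets, 4.16-fold by the means, with a log2 fold change of −2.08 ± 0.25 (adjusted p = 0.00245). It was called under every alternative (−2.26 to −1.99). *plu* at NC12 had 34.0 to 42.1 CPM in *brat* mutants, against 41.9 to 52.3 CPM in *brat* hets, and was not called (−0.38 ± 0.11, adjusted p = 0.0848). *png* did not differ detectably in oocytes (106 to 168 CPM in *brat* mutants against 82.4 to 133 CPM in *brat* hets, 0.28 ± 0.19, adjusted p = 0.382), nor at the other 3 stages (adjusted p of 0.403 to 1.0). *gnu* was between −0.09 and 0.00 on the log2 scale at all 4 stages, with adjusted p of 0.908 to 1.0.

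**Figure D3:**
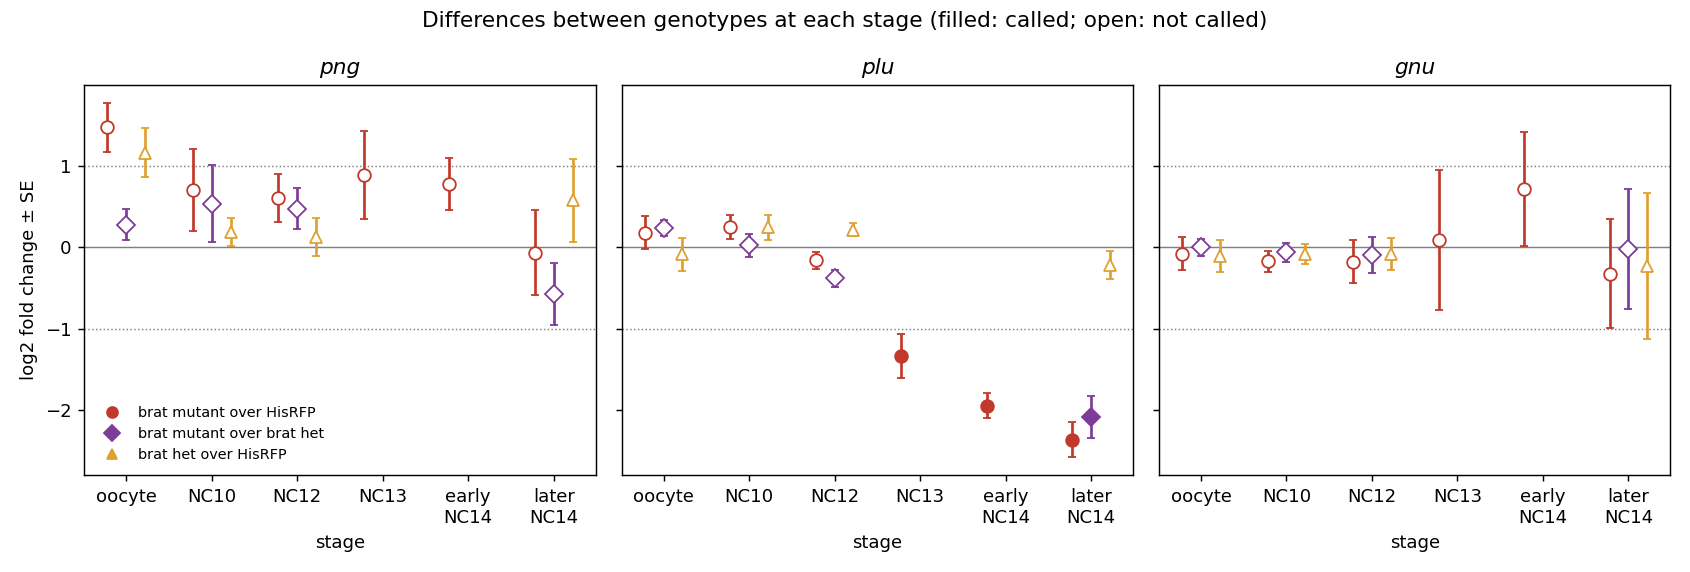
Log2 fold change ± SE of *png*, *plu* and *gnu* at each stage for *brat* mutants over *HisRFP* (circles), *brat* mutants over *brat* hets (diamonds) and *brat* hets over *HisRFP* (triangles); filled symbols were called, and dotted lines mark a log2 fold change of 1 and −1. Called values are those of *plu* at NC13 and early NC14 (−1.34 and −1.94) and at later NC14 (−2.36 over *HisRFP* and −2.08 over *brat* hets).

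A test of the difference between genotypes in the change over time gave the same gene. From NC10 to later NC14 the change of *plu* in *brat* mutants was lower than that in *HisRFP* by a log2 difference of −2.53 ± 0.26 (adjusted p = 7.07e-06), in a comparison that called 6.78% of all tested genes. The same difference was −0.60 ± 0.73 for *png* (adjusted p = 0.691) and −0.00 ± 0.60 for *gnu* (adjusted p = 1.0). For the change from oocyte to NC10, 0.13% of all tested genes were called and none of the 3. *png*, with −0.77 ± 0.64 (adjusted p = 1.0), came to −1.63 (adjusted p = 0.124) without *brat*-mutant NC10 replicate A. These tests use the same *brat*-mutant and *HisRFP* libraries as the comparisons at single stages, so they are no separate evidence.

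Within each genotype, each stage was compared with the one before it. In *HisRFP*, *png* was called lower in 2 of the 5 steps, and *gnu* and *plu* in none. The share of all tested genes called was 12.7% at NC10 over oocytes, 14.9% at NC12 over NC10, 22.4% at NC13 over NC12 and 34.3% at later over early NC14. At early NC14 over NC13 it was 0% (edgeR called 0 of 7676 genes, 1800 had an unadjusted p under 0.05, and DESeq2 called 120 higher and 273 lower). *png* was not called at NC10 over oocytes (−0.87 ± 0.32, adjusted p = 0.0731, and −1.03 with adjusted p = 0.0111 without oocyte replicate B). It fell at NC12 over NC10 (−1.40 ± 0.24, adjusted p = 0.00351) and at NC13 over NC12 (−1.49 ± 0.33, adjusted p = 0.0222). The NC13 call was lost without NC12 replicate A, B or D or NC13 replicate A (adjusted p of 0.056 to 0.0655). In these same 4 fits edgeR called 0 of all genes, with 3206 to 3499 at an unadjusted p under 0.05, against 177 higher and 1398 lower with all libraries, and DESeq2 was not run on them. *gnu* was −0.72 ± 0.19 at NC12 over NC10 (adjusted p = 0.0187, under the size threshold) and −1.89 ± 0.69 at NC13 over NC12 (adjusted p = 0.0568). Between NC12 and NC13 of *HisRFP* the replicate letters went with correlated deviations, and with the letter as a block *gnu* was called there (−2.30, adjusted p = 0.0352). That pairing was chosen from these same data, on 3 pairs of separate embryos, so the blocked call is no separate support. Without the block, *gnu* was called when NC13 replicate C (−1.39, adjusted p = 0.0243) or D (−2.72, adjusted p = 0.0298) was left out.

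*plu* in *HisRFP* stayed near its oocyte level up to early NC14, at 108%, 101%, 135% and 135% of the oocyte mean at NC10, NC12, NC13 and early NC14. Its log2 fold change of 0.41 ± 0.10 at NC13 over NC12 had an adjusted p of 0.0234 but was under the size threshold, as was −0.93 ± 0.15 at later over early NC14 (adjusted p = 0.00109). Without early NC14 replicate C the last was −1.01 and called (adjusted p = 0.00105). The 40.9 to 43.7 CPM of NC12 and the 56.5 CPM of NC13 did not overlap, nor did the 24.8 to 28.6 CPM of later NC14 with the 48.6 to 63.5 CPM of early NC14.

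In *brat* mutants, 1 of the 5 steps was called for each of the 3 genes. *plu* was at 111% of the oocyte mean at NC10, 78.8% at NC12, 47.4% at NC13, 31.8% at early NC14 and 11.4% at later NC14. Its steps were −0.44 ± 0.12 at NC12 over NC10 (adjusted p = 0.063), −0.77 ± 0.23 at NC13 over NC12 (adjusted p = 0.0878), −0.58 ± 0.23 at early NC14 over NC13 (adjusted p = 0.198) and −1.27 ± 0.22 at later over early NC14, which was called (adjusted p = 0.000598). The share of all tested genes called was 12.4% at NC10 over oocytes, 2.24% at NC12 over NC10, 0% at NC13 over NC12 and at early NC14 over NC13, and 45.6% at later over early NC14. At NC13 over NC12 edgeR called 0 genes, with 2849 at an unadjusted p under 0.05, and DESeq2 called 137 higher and 940 lower. At early NC14 over NC13 edgeR called 0, with 1718 at an unadjusted p under 0.05, and DESeq2 called 59 higher and 536 lower. *gnu* was called at later over early NC14 (−1.55 ± 0.33, adjusted p = 0.00224). *png* was called at NC10 over oocytes (−1.62 ± 0.52, adjusted p = 0.0413). Without NC10 replicate A this became −2.50 (adjusted p = 1.5e-05), and without any of the other 7 libraries the call was lost (adjusted p of 0.055 to 0.108). *png* at NC12 over NC10 also turned on that library, at −1.52 ± 0.56 with it (adjusted p = 0.0811) and −0.64 without it (adjusted p = 0.148). Without NC13 replicate A, *png* (−1.35, adjusted p = 0.00671) and *gnu* (−2.04, adjusted p = 0.000546) were called at early NC14 over NC13, in a fit that called 248 higher and 1203 lower of 7402 genes, against 0 with all libraries.

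In *brat* hets *png* was called lower in all 3 steps: −1.88 ± 0.14 at NC10 over oocytes (adjusted p = 3.9e-06), −1.47 ± 0.14 at NC12 over NC10 (adjusted p = 0.000211) and −1.42 ± 0.29 at later NC14 over NC12 (adjusted p = 0.00153). *gnu* was −0.73 ± 0.13 at NC12 over NC10 (adjusted p = 0.00213, under the size threshold) and fell by 4.88 ± 0.68 on the log2 scale at later NC14 over NC12 (adjusted p = 0.000163), with 13 to 66 reads per library left at later NC14. *plu* was 0.34 ± 0.12 at NC10 over oocytes (adjusted p = 0.0412) and −0.82 ± 0.16 at later NC14 over NC12 (adjusted p = 0.00106), both under the size threshold. The share of all tested genes called in these steps was 19.2%, 16.1% and 47.6%.

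The balance of the 3 mRNAs changed with stage. The ratio of *plu* to *png* in RPKM had a median of 0.682 in *brat*-mutant oocytes (0.501 to 0.883), 0.665 in *brat* het oocytes (0.571 to 0.894) and 1.93 in *HisRFP* oocytes (0.752 to 3.27). At NC12 it was 4.85 in *brat* mutants (3.53 to 6.5), 8.31 in *brat* hets (7.04 to 10.4) and 8.4 in *HisRFP* (5.72 to 10.9). At early NC14 it was 8.47 in *brat* mutants (7.21 to 9.09), against 57.6 in *HisRFP* (40.0 to 66.7), and at later NC14 it was 4.27 in *brat* mutants (3.84 to 6.15), 13.0 in *brat* hets (10.9 to 15.8) and 29.5 in *HisRFP* (11.2 to 48.8). The ratio of *gnu* to *plu* in RPKM was above 1 in every library up to NC12. At early NC14 it was 0.718 in *brat* mutants (0.633 to 0.881), against 0.116 in *HisRFP* (0.0181 to 0.205). *plu* was the most abundant of the 3 mRNAs per length at NC14 in both genotypes, by less in *brat* mutants.

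In the order of the 16 group means, the CPM of *plu* spanned the smallest range. Its top 10 groups ran from 56.8 CPM (*HisRFP* early NC14) to 42.0 CPM (*brat* het oocytes), each overlapping its neighbour in the order. Below them came *brat*-mutant NC12 at 37.4 CPM, *HisRFP* later NC14 at 26.9 CPM, *brat*-mutant NC13 at 22.5 CPM, *brat* het later NC14 at 22.4 CPM, *brat*-mutant early NC14 at 15.1 CPM and *brat*-mutant later NC14 at 5.39 CPM, with breaks after *brat*-mutant NC12 and before *brat*-mutant later NC14. For *png* only the step between *brat* het oocytes (112 CPM) and *HisRFP* oocytes (46.1 CPM) separated neighbours. For *gnu* the oocyte and NC10 groups came first and overlapped in the order (322 to 269 CPM), with breaks between them and the NC12 groups and between the NC12 and NC13 groups.

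The neighbours of *plu* were not called in *brat* mutants over *HisRFP* at any stage. *PCNA*, which encodes the sliding clamp of DNA replication, had 180 ± 8.19 CPM in *brat* mutants and 234 ± 30.6 CPM in *HisRFP* at early NC14 (−0.40 ± 0.11, adjusted p = 0.0238, under the size threshold). At later NC14 it had 362 ± 64.8 CPM in *brat* mutants and 378 ± 33.0 CPM in *HisRFP* (−0.10 ± 0.14, adjusted p = 0.634, SD and n = 4 for each mean). *RpS18*, a gene of the small ribosomal subunit, had log2 fold changes of −0.10 ± 0.13 at early NC14 (adjusted p = 0.618) and 0.07 ± 0.20 at later NC14 (adjusted p = 0.814). Next to *png*, *CG11417* was −0.01 ± 0.17 in oocytes (adjusted p = 0.988) and −0.93 ± 0.21 at later NC14 (adjusted p = 0.0122, under the size threshold). *NHP2*, which encodes a protein of box H/ACA snoRNPs and lies beside *gnu*, was at most 0.35 from 0 at the 6 stages and was not called. *CG14770* and *CG17839*, on the far sides of *png* and *gnu*, averaged 0.0747 and 0.203 CPM.

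**Figure D4:**
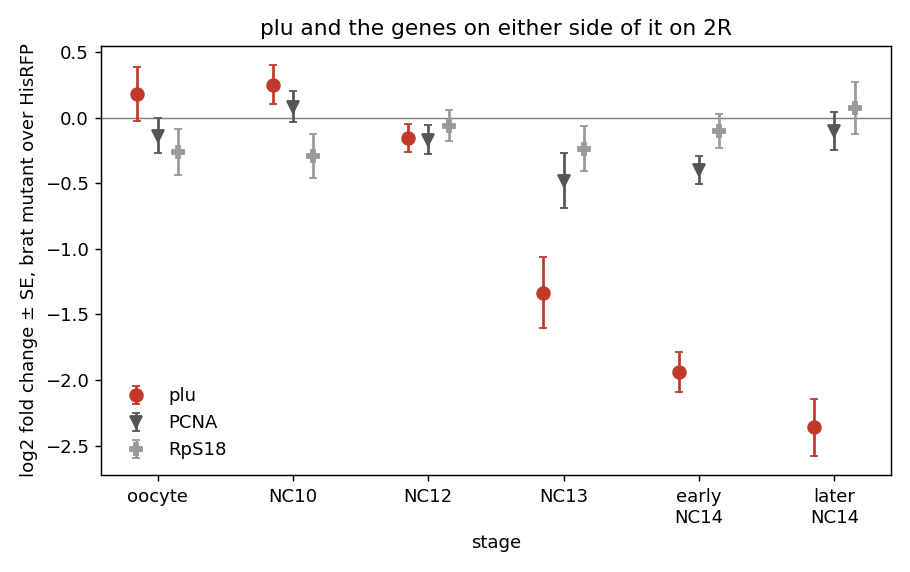
Log2 fold change ± SE of *brat* mutants over *HisRFP* at each stage for *plu* (circles) and the genes on either side of it, *PCNA* (triangles) and *RpS18* (crosses). From NC13 on *plu* lies at −1.34 to −2.36, and *PCNA* and *RpS18* lie between −0.48 and 0.07.

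Over the 62 libraries, Pearson's r of log2(CPM + 1) was 0.85 between *png* and *gnu*, 0.599 between *plu* and *gnu* and 0.477 between *png* and *plu*. Libraries share stage and genotype, so these values describe the pattern only. Among 6366 genes with a mean of at least 5 CPM, those most like *gnu* were *Pxt*, *crq* and *Agpat2* (r = 0.99 each). By Spearman's rho *crq* ranked 3 (0.977), but *Pxt* ranked 178.5 (0.94) and *Agpat2* 129.5 (0.945), ranks of ties being averaged. Those most like *png* were *Alg10* (0.974), *CG14882* (0.97) and *CG17544* (0.97), which ranked 3, 1 and 32 by rho. *plu* had less close matches, *CG8507* (0.904), *CG1785* (0.877) and *CG8490* (0.872), which ranked 4, 5 and 12 by rho.

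Of other genes listed for egg activation, the kinase's regulation and translational control, 1 was called before NC14 in *brat* mutants over *HisRFP*. The first list held 15 genes of egg activation and of the kinase's regulation (cyclins and *Cdk1*, *cort*, calcineurin subunits and *sra*, *twe*, *polo*, *mtrm* and *wisp*). The second held 9 substrates and translational regulators (*tral*, *me31B*, *BicC*, *cup*, *pum*, *nos*, *smg*, *brat* and *zld*), of which *BicC*, *cup* and *nos* were not analysed here. None was called in oocytes or at NC10 and NC13, where 13 and 6 genes of the lists were tested in *brat* mutants over *HisRFP*. At NC12, *CanA-14F*, a catalytic subunit of calcineurin, was called higher (1.06 ± 0.29, adjusted p = 0.044). At early NC14, 4 of 13 in the first list and 2 of 6 in the second were called higher and none lower, where 13.8% of all tested genes were called in either direction. The median log2 fold change was 0.83 in the first list and 0.69 in the second, beside −0.06 over all genes tested. All genes are not matched to the lists for maternal mRNAs, many of which the study reports raised in *brat* mutants. The 2 called genes of the second list were *brat*, the mutated gene, and *zld*, which the study follows. Over both lists, the called genes with the largest changes were *brat* itself (3.26 ± 0.11, adjusted p = 2.41e-07), *CanA-14F* (2.81 ± 0.38, adjusted p = 0.000752) and *zld*, the gene of the zygotic activator Zelda (1.80 ± 0.45, adjusted p = 0.0188). *brat* mRNA had 990 ± 28.7 CPM in *brat* mutants and 101 ± 5.65 CPM in *HisRFP* at early NC14, and *zld* had 4119 ± 3258 CPM in *brat* mutants and 1169 ± 169 CPM in *HisRFP* (SD, n = 4 each). At later NC14, *brat* (2.01 ± 0.20, adjusted p = 0.00014) and *CanB2*, a regulatory subunit of calcineurin (1.52 ± 0.40, adjusted p = 0.0217), were called higher, and *pum*, whose protein works with BRAT (−1.78 ± 0.33, adjusted p = 0.00452), was called lower. With 1 higher of 12 in the first list and 1 higher and 1 lower of 6 in the second, where 13.7% of all tested genes were called in either direction, the list medians were 0.16 and 0.33, beside −0.03 over all genes. In *brat* hets over *HisRFP* none of either list was called at any of the 4 stages. In *HisRFP* embryos at NC10 over oocytes, 1 gene of the first list was called, *cort*, which encodes a meiotic activator of the anaphase-promoting complex and fell by 3.09 ± 0.14 on the log2 scale (adjusted p = 2.89e-06).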

How the data were processed

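The authors made libraries from single oocytes and embryos with a TruSeq RNA kit, which selects poly(A) RNA, aligned the reads to dm6 with HISAT2 2.1.0, discarded reads with several alignments, filtered with SAMtools and assigned reads to genes with featureCounts 1.5.3 at default settings, which do not use strand. The deposited values are raw read counts per gene, without normalization. A poly(A) library does not measure tail length or protein. Gene positions and exon lengths came from the Ensembl annotation of the same assembly (99.4% of identifiers matched).

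A gene entered a comparison if its libraries held at least 50 reads of it together. Tests were unpaired quasi-likelihood F-tests (edgeR 4.0.16 in R 4.3.3, TMM factors), with Benjamini-Hochberg adjustment across the genes that entered. Standard errors were taken as the size of the log2 fold change over √F. The thresholds in the 29 comparisons were those of the study (adjusted p below 0.05, log2 fold change above 1 in size). The study applied them with DESeq2, which is an alternative here, so calls can differ from those of the study. p-values measure the spread between separate oocytes or embryos. Figures were drawn with matplotlib 3.10.9.

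Named genes are the 3 kinase genes, *brat*, *zld*, the 3 genes most like each kinase gene, neighbours, and of the 2 lists, at most 3 called genes in each direction with the largest changes. The kinase genes and the lists were chosen with earlier results of these data known. Replicate letters recur across groups, and nothing says what they stand for. Deviations from the group means were correlated most in same-lettered pairs between NC12 and NC13 of *HisRFP* (0.301 to 0.512, mean 0.408). The letter was taken as a pairing there, a choice made from these same data. Every pair was also positive in some other comparisons, such as *brat* hets with *HisRFP* at later NC14 (0.0819 to 0.457, mean 0.228). Alternatives were RLE factors, library totals, DESeq2 1.42.0, no filter beyond 1 read, all 62 libraries in a common fit, the letter as a block, removal of the eggshell genes in oocyte comparisons, and each library left out.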

Additional observations from a re-analysis of the deposited data

Results flagged for a closer look

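In 4 of the 42 combinations of gene and group with 4 libraries, a library lay far from the other 3, by Dixon's criterion at 95%, which chance alone meets in about 1 in 20 groups. *png* in *brat*-mutant NC10 replicate A was at 102 CPM, against 20.4 to 26.0 CPM in the other 3, in the library that also had 0 CPM of the 8 zygotic genes. *png* in *brat*-mutant later NC14 replicate A was at 3.42 CPM, against 1.71 to 1.88 CPM. *gnu* in replicate D was at 14.4 CPM in *brat* hets at later NC14, against 1.30 to 3.03 CPM, and at 15.7 CPM in *HisRFP* at later NC14, against 1.56 to 3.85 CPM. Causes of these values were not tested.

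The change of *plu* from NC10 to later NC14 differed between genotypes by the test of the difference itself. It was lower in *brat* mutants than in *HisRFP* by a log2 difference of −2.53 ± 0.26 (edgeR, adjusted p = 7.07e-06), and all 4 *brat*-mutant embryos at later NC14 were below all 4 *HisRFP* embryos.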

How the results depend on the processing

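Of the 87 fold changes (3 genes in 29 comparisons), 72 kept their side of the threshold under all alternatives, 15 did not, and no called value reversed. *png* in oocytes passed in *brat* mutants over *HisRFP* with library totals (1.57), DESeq2 (1.46), no filter (1.47), the common fit (1.5) and the replicate block (1.53), and in *brat* hets over *HisRFP* with library totals (1.32), DESeq2 (1.16) and the common fit (1.29). *plu* at NC13 in *brat* mutants over *HisRFP* was not called with library totals (−1.25) or the block (−1.39). In *brat* mutants, *png* passed at NC12 over NC10 with DESeq2 (−1.56) and the common fit (−1.56) and at NC13 over NC12 with the common fit (−1.17). *gnu* passed there with DESeq2 (−1.62) and no filter (−1.64), and at early NC14 over NC13 with DESeq2 (−1.66) and no filter (−1.62). *plu* passed in *brat* hets at later NC14 over NC12 with library totals (−1.16), no filter (−1.08) and the common fit (−1.09), and in *HisRFP* at later over early NC14 with the common fit (−1.08). *gnu* in *HisRFP* passed at NC13 over NC12 with DESeq2 (−1.90), the common fit (−1.89) and the block (−2.30), and at early NC14 over NC13 with the common fit (−2.24) and the block (−3.09). The block changed no other call. The causes were not tested.

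With each library left out in turn, the ranges where a call changed were −1.6 to −1.12 for *plu* at NC13 in *brat* mutants over *HisRFP*, −2.72 to −1.39 for *gnu* and −1.76 to −1.30 for *png* in *HisRFP* at NC13 over NC12, −1.03 to −0.68 for *png* in *HisRFP* at NC10 over oocytes, −1.01 to −0.88 for *plu* in *HisRFP* at later over early NC14, −2.50 to −1.37 for *png* in *brat* mutants at NC10 over oocytes, and −1.35 to −0.58 for *png* and −2.04 to −1.27 for *gnu* in *brat* mutants at early NC14 over NC13.

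The count of all genes called moved by over 1.5 times in 12 of the 29 comparisons with DESeq2, 9 with the common fit, 7 with the block, 4 with no filter and 1 with library totals. It did so with some library left out in 12 of the 29, among them *brat* mutants over *HisRFP* at NC13 (42 to 266 genes, against 286 with all libraries) and *HisRFP* at NC13 over NC12 (0 to 1774, against 1575) and at early NC14 over NC13 (0 to 481, against 0). In *brat* mutants over *HisRFP*, 84 genes were called in oocytes by edgeR, 341 by DESeq2 and 584 in the common fit. At NC13 it was 286 by edgeR, 641 by DESeq2, 818 in the common fit, 489 with no filter and 7 with the block. At later NC14 in *brat* mutants over *brat* hets it was 151 by edgeR, 342 by DESeq2, 338 in the common fit and 68 with the block. *png* had 8 to 34 reads per library at later NC14, so small differences there were not detectable at this depth.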
